A study of Mus musculus with 2 samples.

Results

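C-type lectins are proteins with a carbohydrate-recognition type of domain, and the genes described here are those whose name on the array began with Clec and a digit or with Cd209. They numbered 38 genes of 30125 gene names on the array, read by 51 probes, and the rule used the name on the array and no signal. The family itself was chosen with earlier results of these data known. The study compared 2 libraries made from mouse regulatory T (Treg) cells, the CD4 T cells that restrain immune responses, after sorting. Both came from mice of 5 weeks, 1 labelled Nr4a-deficient and 1 labelled wild-type, each hybridised to 1 single-colour Agilent array. The library labelled Nr4a-deficient is also named Nr4a-TKO in the deposited data. The Nr4a family are nuclear receptors whose genes are switched on early after T cell activation. The alleles, any Cre driver, the strain, the tissue, the sort markers and the number of animals are not given in the sources used here. With 1 library a group, nothing was tested between genotypes, and every value describes these 2 libraries.

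Members of this family bind sugars, lipids or proteins of microbes and of dying or neighbouring cells, and pass on activating signals through the kinase Syk or inhibitory ones through phosphatases. Dendritic cells, macrophages and other myeloid cells carry most of them, and platelets and endothelium carry a few. Several Clec2 proteins are ligands of natural killer (NK) cell receptors. In mice the CD209 genes, relatives of human DC-SIGN, form a row of duplicated genes on 1 chromosome. T cells are not known as a main source of CD209 proteins.

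Signals are the processed intensity of a spot, on a linear scale, and each member probe had 1 spot on each array. The ± after a signal is the error that the scanner software gave that spot, which holds nothing of the spread between mice or sorts. Differences are on the log2 scale, library labelled Nr4a-deficient less wild-type, once both arrays had been divided by their own 75th percentile. Well above background is the call of the scanner software. A gene with that call on 1 array only has a bound, written "at least", and 2-fold counted as higher or lower. The array of the library labelled Nr4a-deficient had 23113 probes well above background and the wild-type array 21872. The lowest signals with that call were 51.1 and 73.8. The 8 spike-in RNAs lay 0.37 ± 0.058 (SD, n = 8) higher in the library labelled Nr4a-deficient on this scale. Scaled to the spike-ins, the median over all genes is -0.37 in place of 0.0033, and 27.1% in place of 48.8% of the changed genes are higher. Against the label, Nr4a1 (0.86) and Nr4a2 (0.98) were higher in that same library, and Nr4a3 was not well above background, so directions rest on the labels. All 7 T cell markers measured were within 2-fold, from -0.24 for Cd5 to 0.18 for Cd3e. Foxp3, the defining factor of Treg cells, gave signals of 74.5 and 85.4, near the lower limit of both arrays. Of 6 Treg markers, Il2ra alone passed 2-fold (2.42-fold lower, 16618 against 46649).

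Of the 38 lectin genes, 24 (63.2%) were well above background on at least 1 array, beside 61.7% of all genes. On both arrays 15 were, in the library labelled Nr4a-deficient alone 6 (25% of the 24, beside 8.61% of all detected genes), and in wild-type alone 3 (beside 3.48%). In the library labelled Nr4a-deficient, 6 of the 24 were at least 2-fold higher (Clec10a, Cd209a, Cd209d, Cd209e, Clec9a and Cd209c) and 5 at least 2-fold lower (Cd209f, Clec1b, Clec1a, Clec4n and Clec4d). The other 13 did not pass 2-fold by value or bound. Of the 15 measured on both arrays, 2 were higher and 2 lower, beside 5.71% of all such genes past 2-fold in either direction. Over all 18540 genes above background on at least 1 array, 4.7% were higher and 4.94% lower by the same count, together 9.63%, beside 45.8% of the lectins. A change of at least 8-fold was seen in 6 of the 24 lectins and in 1.04% of all genes. The median difference of the lectins was 0.25 and that of all genes 0.0033, and the lectin median turned to -0.12 when scaled to the spike-ins. With genes called on 1 array at their bounds, the medians were 0.097 and 0. The size of the difference, regardless of direction, had a median of 0.73 in the lectins and 0.20 in all genes. The lectins above background on 1 array passed this filter through their brighter array, so their count supports nothing on its own. The family was also chosen with earlier results of these data known. Its shares and medians beside those of all genes therefore describe these libraries and support nothing on their own.

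**Figure D1:**
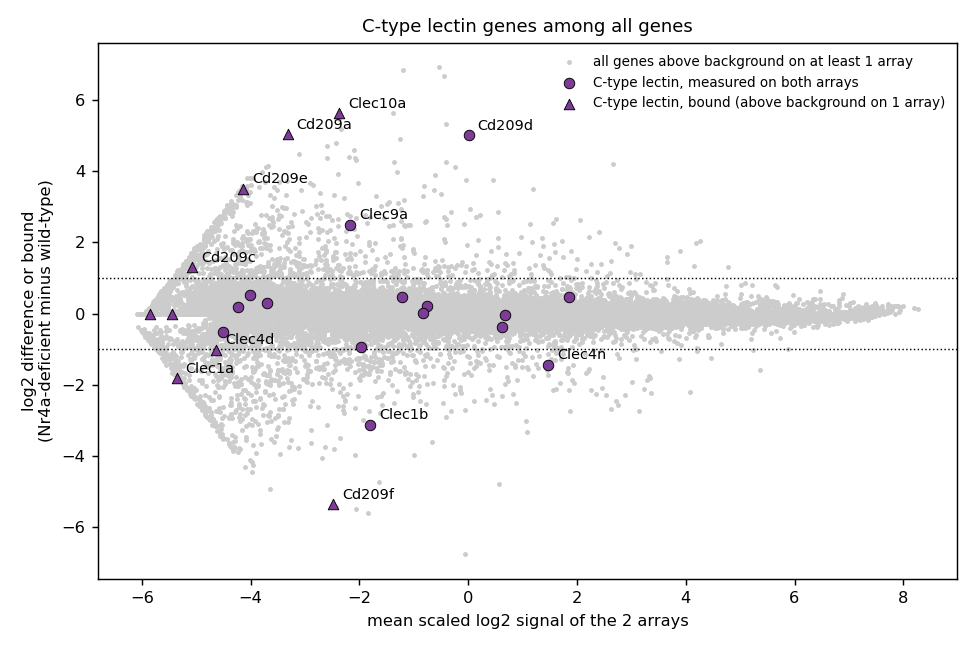
Log2 difference or bound (library labelled Nr4a-deficient less wild-type) against the mean scaled log2 signal of the 2 arrays, for all 18540 genes above background on at least 1 array (grey) and the 24 lectin genes among them (purple). Circles were measured on both arrays, triangles are bounds, and dotted lines mark 2-fold. The 11 named lectins lie past 2-fold, 6 above and 5 below.

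The CD209 paralogs differed in both directions. Cd209a, Cd209c, Cd209d and Cd209e were higher where the label is Nr4a-deficient, Cd209f was lower, and Cd209b and Cd209g were not well above background on either array. Their probes are shown because the difference between paralogs rests on how well each probe tells them apart. Each is 60 bases, written 5′ to 3′ with its mm9 position as the array design gives it, and capitals mark AATAAA, the letters of the common polyadenylation signal, which lie in 7 of the 51 lectin probes (13.7%) and in 12.6% of all probes.
Cd209a, 3′ probe, chr8:3743481-3743540, minus strand: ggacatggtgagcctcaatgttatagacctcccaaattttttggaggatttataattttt
Cd209a, 5′ probe, chr8:3747664-3748335, minus strand: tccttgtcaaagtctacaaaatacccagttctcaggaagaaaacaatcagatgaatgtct
Cd209b, chr8:3921355-3921414, minus strand: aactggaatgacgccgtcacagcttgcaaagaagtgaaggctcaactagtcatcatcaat
Cd209c, 3′ probe, chr8:3940223-3940282, minus strand: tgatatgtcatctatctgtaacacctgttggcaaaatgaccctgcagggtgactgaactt
Cd209c, 5′ probe, chr8:3944888-3944947, minus strand: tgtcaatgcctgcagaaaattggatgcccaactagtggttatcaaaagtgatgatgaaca
Cd209d, chr8:3871827-3871886, minus strand: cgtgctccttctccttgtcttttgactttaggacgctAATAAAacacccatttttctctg
Cd209e, chr8:3848016-3848075, minus strand: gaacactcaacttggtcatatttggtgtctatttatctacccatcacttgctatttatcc
Cd209f, chr8:4102798-4102857, minus strand: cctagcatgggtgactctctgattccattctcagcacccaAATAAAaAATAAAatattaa
Cd209g, chr8:4137318-4137377, plus strand: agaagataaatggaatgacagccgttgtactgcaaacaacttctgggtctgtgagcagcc
Among the 34 pairs of probes for different CD209 genes, the longest run of bases in common was 9. None of the 51 lectin probes had a run of 20 bases in common with a probe for any other gene among the 39348 probes searched. Only probe was set against probe here, and the full transcripts were not searched.

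Cd209a encodes the mouse protein closest in name to DC-SIGN, a receptor of dendritic cells for mannose and fucose sugars. Its 3′ probe gave 2084 ± 209 in the library labelled Nr4a-deficient against 17.3 ± 17.3 in wild-type, so the first was high and the second at background. That is at least 32.8-fold higher. Its 5′ probe, which lies across 672 bases of the genome and therefore over a splice junction, gave 158 ± 21.2 and 19.8 ± 19.7, at least 2.48-fold higher. Both probes thus pointed the same way, with a signal only in the library labelled Nr4a-deficient.

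Cd209d, also called SIGNR3, binds mannose and fucose sugars on mycobacteria and fungi. It was the only CD209 gene well above background on both arrays, with 10045 ± 1005 in the library labelled Nr4a-deficient against 363 ± 41.7 in wild-type. The log2 difference was 5.00 with an error of 0.22 from the spot errors, or 32.1-fold. Cd209e, also called SIGNR4, gave 719 ± 72.8 and 16.1 ± 16.1, at least 11.3-fold higher. All 3 genes were bright in the library labelled Nr4a-deficient, and of these the wild-type library had a signal of Cd209d alone.

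Cd209c, also called SIGNR2, had a smaller bound. Its 3′ probe gave 156 ± 21.3 in the library labelled Nr4a-deficient against 20.3 ± 20.3 in wild-type, at least 2.46-fold higher, while its 5′ probe was at background on both arrays. The bound of 1.30 fell under 2-fold when scaled to the spike-ins (0.93) and with normexp and quantile normalization (0.46).

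Cd209f, also called SIGNR8, ran the other way. It gave 47.2 ± 11.4 in the library labelled Nr4a-deficient, not well above background, and 2420 ± 242 in the wild-type library, at least 40.8-fold lower. On the log2 scale the bound was -5.35. The wild-type library was thus the one with a bright Cd209f signal, and the same library had Cd209a, Cd209c and Cd209e at background.

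Cd209b encodes SIGNR1, by which macrophages of the splenic marginal zone take up capsular polysaccharides. It gave 39.8 ± 12.0 in the library labelled Nr4a-deficient against 16.1 ± 16.0 in wild-type. Cd209g, also called SIGNR7, gave 13.5 ± 13.5 and 76.2 ± 19.8. Neither had a signal called well above background, and no fold is given.

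**Figure D2:**
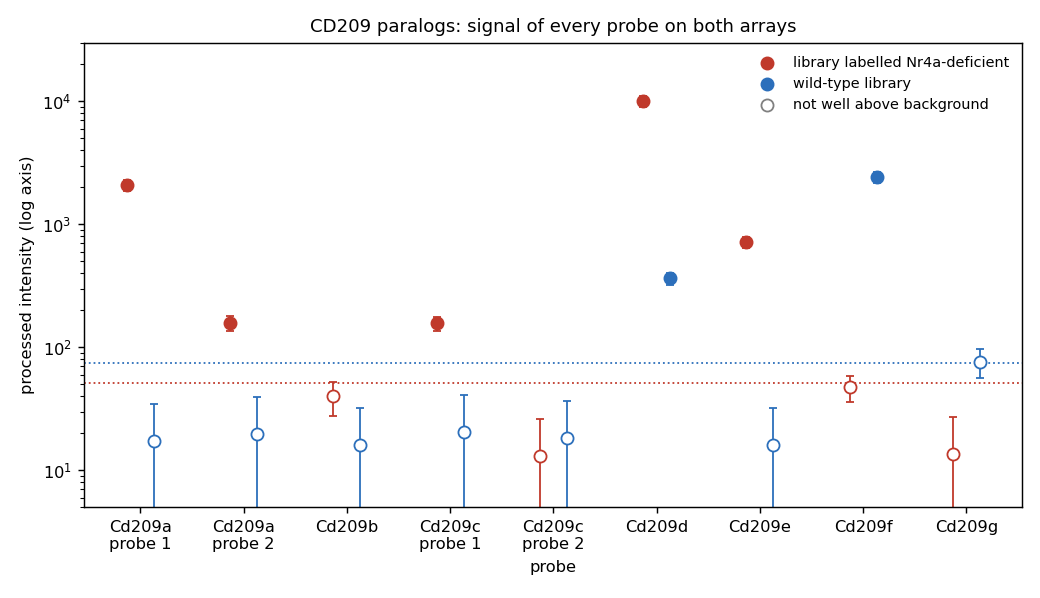
Processed intensity (log axis) of each CD209 probe in the library labelled Nr4a-deficient (red) and the wild-type library (blue), 1 spot per probe and array. Bars are the spot error of the scanner software, open circles were not well above background, dotted lines are the lowest signal with that call on each array, and probe 1 is the 3′ and probe 2 the 5′ probe. Cd209a, Cd209c (probe 1), Cd209d and Cd209e are high in red, and Cd209f is high in blue.

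On chromosome 8, RefSeq (GRCm38.p6) places the protein-coding genes in the order Clec4g, Cd209a, Cd209e, Cd209d, Cd209b, Cd209c, Cd209f and Cd209g, with no other protein-coding gene between them. The genes that were higher were therefore near each other but not in an unbroken row. Cd209b, not well above background on either array, lay between Cd209d and Cd209c, and Cd209f lay next to Cd209c on its far side. Clec4g, which encodes LSECtin of sinusoidal endothelium, sits at the near end and gave 130 ± 17.7 and 106 ± 20.1, a difference of 0.52. It lay within 2-fold beside Cd209a, which was at least 32.8-fold higher.

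The promoters of Cd209a, Cd209d and Cd209e, the paralogs at least 8-fold higher, are shown around the longest run of bases they have in common. RefSeq sequences of 300 bases (250 before and 50 after the annotated start) matched 32 of the 38 genes, with 35 promoters. The run was found after the values were seen, has 12 bases and is in capitals, on the strand of the gene, with coordinates on GRCm38.p6.
Cd209a, chr8:3748967-3749053, minus strand: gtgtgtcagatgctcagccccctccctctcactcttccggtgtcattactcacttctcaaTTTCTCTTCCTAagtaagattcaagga
Cd209d, chr8:3878543-3878629, minus strand: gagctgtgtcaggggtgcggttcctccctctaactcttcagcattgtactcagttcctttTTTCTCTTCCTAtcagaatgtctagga
Cd209e, chr8:3854345-3854431, minus strand: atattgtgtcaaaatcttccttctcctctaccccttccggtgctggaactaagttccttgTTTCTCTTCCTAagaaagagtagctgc
Its first base lies 9 bases before the annotated start of Cd209a, 70 before that of Cd209d and 85 before that of Cd209e. Searched on both strands, TTTCTCTTCCTA was in 9 of 32851 promoters (0.027%), and these 3 genes were the only lectins among them. Duplicated genes have stretches in common by descent, so this match is a description of sequence. AAAGGTCA, the NBRE letters that Nr4a receptors bind as monomers, was found on either strand in 1 of the 35 lectin promoters, that of Clec4b2, and in 1.51% of all promoters. The signals of Clec4b2 were at background.

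Clec10a encodes MGL1, a receptor of dendritic cells and macrophages for galactose-type sugars. It is read by 1 probe, shown for the size of its bound.
Clec10a, chr11:69984254-69984313, plus strand: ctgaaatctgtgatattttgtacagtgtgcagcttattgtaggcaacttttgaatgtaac
Its signals were 3129 ± 313 in the library labelled Nr4a-deficient against 43.3 ± 21.6 in wild-type, not well above background in the latter. That is at least 49.2-fold higher. Clec4f, the Kupffer cell receptor of the same sugar specificity, was at background on both arrays.

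Genes of the Dectin-1 cluster on chromosome 6 differed in opposite directions although they are neighbours. Clec9a was higher in the library labelled Nr4a-deficient, Clec1b and Clec1a were lower, and Clec7a and Clec12a did not pass 2-fold. RefSeq places Clec9a between Clec1b and Clec1a. The probes of these 3 genes are shown, with AATAAA in capitals as above. Several positions along the same transcript can be compared for Clec1b and Clec9a, while Clec1a has 1 probe.
Clec1b, 5′ probe, chr6:129350113-129350172, plus strand: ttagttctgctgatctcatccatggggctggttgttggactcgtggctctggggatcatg
Clec1b, middle probe, chr6:129353604-129353663, plus strand: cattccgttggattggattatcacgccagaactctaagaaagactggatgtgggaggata
Clec1b, 3′ probe, chr6:129355286-129355345, plus strand: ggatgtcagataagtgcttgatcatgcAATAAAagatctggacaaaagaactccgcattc
Clec1a, chr6:129377543-129377602, minus strand: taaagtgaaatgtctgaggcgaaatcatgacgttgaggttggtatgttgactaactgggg
Clec9a, 3′ probe, chr6:129372492-129372551, plus strand: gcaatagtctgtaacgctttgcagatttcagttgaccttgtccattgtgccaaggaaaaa
Clec9a, 5′ probe, chr6:129369605-129369664, plus strand: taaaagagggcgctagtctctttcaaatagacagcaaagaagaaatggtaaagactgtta
None of these probes had a run of 20 bases in common with a probe of another gene.

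Clec9a encodes DNGR-1, by which type 1 conventional and plasmacytoid dendritic cells of the mouse sense actin filaments exposed by dead cells. Its 3′ probe gave 930 ± 93.9 in the library labelled Nr4a-deficient against 192 ± 25.7 in wild-type, a log2 difference of 2.49 with an error of 0.24 (5.63-fold). Its 5′ probe gave 149 ± 18.6 and 49.8 ± 16.6, at least 2.34-fold higher. Both probes were brighter in the library labelled Nr4a-deficient.

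Clec1b encodes CLEC-2, the podoplanin receptor best known from platelets and also carried by Kupffer cells. Its 3′ probe gave 171 ± 21.6 in the library labelled Nr4a-deficient against 1721 ± 173 in wild-type, 8.67-fold lower (-3.12, error 0.23). The middle probe gave 109 ± 16.8 and 1313 ± 133, 10.4-fold lower (-3.37, error 0.27). The 5′ probe gave 268 ± 30.8 and 795 ± 82.4, 2.55-fold lower (-1.35, error 0.22). All 3 probes were well above background on both arrays and brighter in the wild-type library, and the difference was smallest at the 5′ end. Of the 7 platelet markers, Pf4, Ppbp, Itga2b, Gp9, Gp1ba and Gp6 were at background on both arrays, and Treml1 lay at -0.17. Pdpn, which encodes podoplanin, was at background too (11.3 and 16.1).

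Clec1a encodes MelLec, a receptor for fungal melanin found on endothelium and myeloid cells. It gave 10.2 ± 10.2 in the library labelled Nr4a-deficient against 209 ± 25.5 in wild-type, at least 3.51-fold lower. Clec7a encodes Dectin-1, the receptor for fungal beta-glucans that signals through Syk. It gave 897 ± 90.9 and 749 ± 77.8, a difference of 0.48, or 0.10 when scaled to the spike-ins. Clec12a encodes the inhibitory receptor MICL. It was well above background in the library labelled Nr4a-deficient alone, at 60.7 ± 12.5 against 31.2 ± 16.0, and allows no bound over 1-fold. Clec12b, another inhibitory receptor of this cluster, was at background at both of its probes.

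In the Dectin-2 cluster, also on chromosome 6, no gene was higher and 2 of 7 above background, Clec4n and Clec4d, were lower in the library labelled Nr4a-deficient. The probes of Clec4n and Clec4b1 are shown, the first as the only gene of the cluster past 2-fold with both signals above background and the second because its probes disagreed.
Clec4b1, junction probe, chr6:123000666-123018461, plus strand: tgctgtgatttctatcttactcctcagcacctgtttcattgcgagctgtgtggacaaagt
Clec4b1, other probe, chr6:123015995-123016054, plus strand: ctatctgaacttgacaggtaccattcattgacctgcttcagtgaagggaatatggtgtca
Clec4n, chr6:123196969-123197028, plus strand: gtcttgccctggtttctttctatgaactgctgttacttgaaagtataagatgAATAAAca
Clec4n encodes Dectin-2, a receptor of macrophages for fungal mannans. It gave 2967 ± 297 in the library labelled Nr4a-deficient against 9300 ± 930 in wild-type, 2.70-fold lower (-1.43, error 0.20). Clec4d encodes MCL, which pairs with Mincle in the recognition of mycobacterial glycolipid. It gave 48.5 ± 14.4, not well above background, and 120 ± 22.5, at least 2.02-fold lower. That bound fell under 2-fold with the 75th percentile over probes above background on both arrays (-0.97) and with normexp and quantile normalization (-0.59). Clec4e, which encodes Mincle itself, was at background on both arrays.

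Clec4b1 encodes the activating receptor DCAR, and its probes pointed in opposite directions. The probe over a junction, which spans 17796 bases of the genome, gave 326 ± 34.2 in the library labelled Nr4a-deficient against 726 ± 74.1 in wild-type (-0.94, error 0.21). The other probe, designed on a different RefSeq transcript, gave 439 ± 45.5 and 152 ± 22.8 (1.74, error 0.26). The gene as a whole therefore has no direction here: the mean of its probes is 0.40, and the brighter probe alone passes 2-fold in 3 of 7 scalings.

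The DCIR receptors of this cluster were measured one by one. Clec4a1 (DCIR4) gave 2782 ± 278 and 3310 ± 331, and Clec4a3 (DCIR3) gave 1000.2 ± 101 and 1149 ± 116. Their differences were -0.034 and 0.017, smaller than their errors of 0.20 and 0.21, and they became -0.41 and -0.35 when scaled to the spike-ins. Clec4a2 (DCIR) was dim, with 64.8 ± 13.7 and 108 ± 20.1 (-0.52, error 0.41). Clec4a4 (DCIR2), a receptor of dendritic cells, was called in the library labelled Nr4a-deficient alone, at 62.2 ± 13.7 against 17.5 ± 17.4, and allows no bound over 1-fold. Bright and nearly equal signals of Clec4a1 and Clec4a3 thus stood beside the large differences of the CD209 genes in the same 2 libraries.

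**Figure D3:**
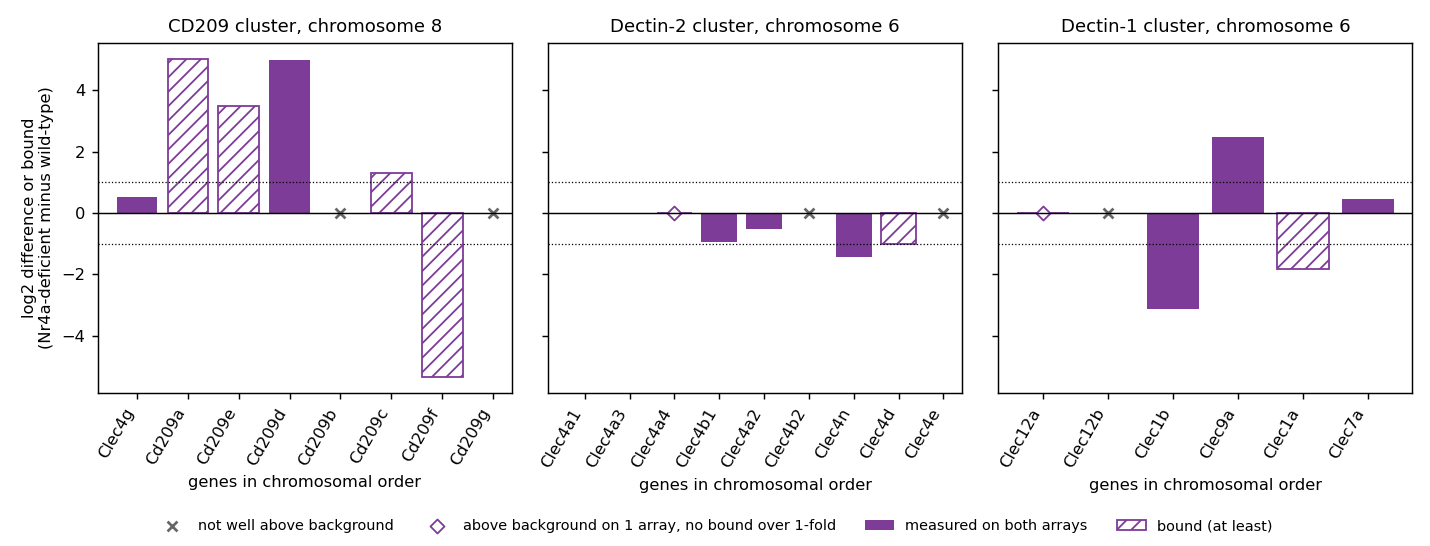
Log2 difference or bound (library labelled Nr4a-deficient less wild-type) of the lectin genes of the CD209, Dectin-2 and Dectin-1 clusters, in the order of their starts on the chromosome. Filled bars were measured on both arrays, hatched bars are bounds, crosses were not well above background on either array, diamonds allow no bound over 1-fold, and dotted lines mark 2-fold. Cd209a, Cd209e, Cd209d and Cd209c point up and Cd209f down, Clec9a points up between Clec1b and Clec1a, and the bars of Clec4a1 (-0.034) and Clec4a3 (0.017) are too short to see.

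The Clec2 genes, several of whose products are ligands of Nkrp1 receptors on NK cells, did not pass 2-fold. Clec2d, which encodes Clr-b and is broadly expressed on blood cells, gave 7442 ± 744 in the library labelled Nr4a-deficient against 6301 ± 630 in wild-type (0.46, error 0.20, or 0.085 when scaled to the spike-ins). Clec2i, which encodes Clr-g, gave 2375 ± 238 and 3571 ± 358 (-0.37, error 0.20). Clec2e, which encodes Clr-a, gave 99.4 ± 17.1 and 102 ± 21.9 (0.18, error 0.40). The receptor genes were dim: Klrb1b, the receptor of Clr-b, was called in the library labelled Nr4a-deficient alone (bound 1.01-fold), and Klrb1f, a receptor of Clr-g, lay at -0.38. Clec2g, Clec2h and Clec2l were at background on both arrays.

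Among the remaining members, Clec16a carries the family name but is known as a regulator of autophagy and mitophagy. Its detected probe gave 1114 ± 112 and 1126 ± 114 (0.20, error 0.21), and its other probes were at background. Clec3b, which encodes the secreted protein tetranectin, gave 150 ± 18.8 and 141 ± 21.3 (0.30, error 0.28). Both differences turn negative when scaled to the spike-ins (-0.17 and -0.071). In all, 14 genes were not well above background on either array: Cd209b, Cd209g, Clec11a, Clec12b, Clec14a, Clec18a, Clec2g, Clec2h, Clec2l, Clec3a, Clec4b2, Clec4e, Clec4f and Clec5a. Their 19 probes gave at most 56.4 in the library labelled Nr4a-deficient and 15.4 to 76.2 in wild-type.

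**Figure D4:**
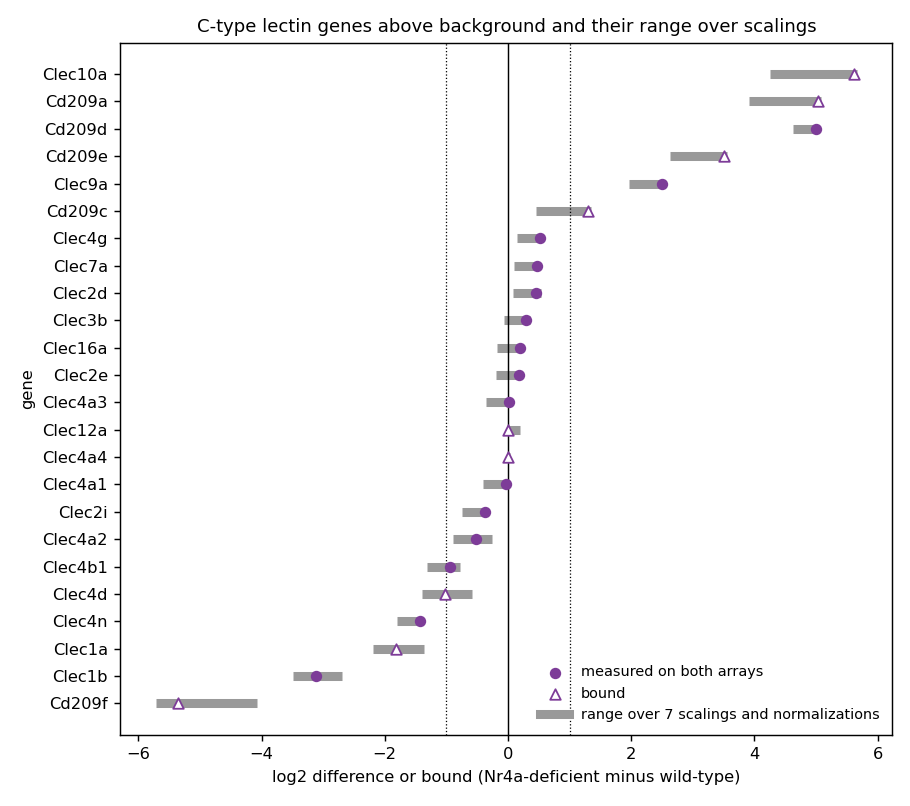
Log2 difference or bound (library labelled Nr4a-deficient less wild-type) of the 24 lectin genes above background on at least 1 array, with grey bars for the range over 7 scalings and normalizations and dotted lines at 2-fold. Circles were measured on both arrays and triangles are bounds. Clec10a, Cd209a, Cd209d, Cd209e and Clec9a stay above 2-fold and Clec4n, Clec1a, Clec1b and Cd209f below it in all 7, while Cd209c, Clec4d and Clec4b1 cross it.

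The genes that pass on lectin signals were mostly within 2-fold. All 23 genes of the signalling list were well above background on both arrays, 1 was higher (Plcg2, 2.67-fold, a phospholipase downstream of Syk) and 2 were lower (Card9, the adaptor between Syk and NF-kappaB, 2.29-fold, and Vav3, an exchange factor, 2.42-fold). These 3 of 23 stand beside 5.71% of all genes above background on both arrays. Their median was 0.085, or -0.29 when scaled to the spike-ins. Syk lay at 0.65, and the adaptor genes Fcer1g and Tyrobp lay at -0.16 and 0.94. Of 8 genes for ligands and counter-receptors on the array, 7 were above background and 0 past 2-fold, with a median of 0.21. Many of the signalling genes also act in T and B cell receptor signalling. Of 32 C-type lectins under other names, 16 were above background, 1 higher and 4 lower, beside 9.63% of all detected genes in either direction. Mrc1, the macrophage mannose receptor, was 2.81-fold lower, Cd302 3.16-fold, Selp (P-selectin) at least 4.09-fold and Chodl at least 3.07-fold lower, and Cd93, an endothelial and myeloid lectin, just passed 2-fold upward (signals of 244 and 141). Cd69, a lectin that T cells carry, lay at -0.062.

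Markers of the cells that usually carry these lectins moved in both directions in the same libraries. Over 13 lists of markers of other cell types, 73 of 89 genes were above background, 23 higher and 18 lower in the library labelled Nr4a-deficient, again beside 9.63% of all detected genes. The lists and their markers, Cox6a2 among them, were chosen with earlier results of these data known. The counts and medians of the lists therefore support nothing on their own. Of 10 plasmacytoid dendritic cell markers, 7 were past 2-fold upward and 0 downward, and the list median was 1.33. Tcf4, their lineage factor, was 7.57-fold higher, Klk1 at least 27.8-fold and Cox6a2 114-fold. The probes of Siglech, a defining gene of these cells, ranged from 0.10 at the brightest to a bound of at least 99.2-fold at another, with 2 of 3 probes past 2-fold. Among 8 pan-dendritic and antigen presentation markers, 4 were higher and 1 was lower, with a median of 1.05. The antigen presentation genes H2-Aa, H2-Ab1 and H2-Eb1 were 4.46-, 4.10- and 3.96-fold higher, while the costimulatory gene Cd86 was 5.37-fold lower. Flt3 was 1.34-fold higher at its brightest probe. Its 3 probes ranged from 1.29-fold to 15.7-fold by value or bound, with 1 past 2-fold. Zbtb46 was at least 1.32-fold higher. Xcr1 and Tlr3, markers of type 1 conventional dendritic cells, were at background on both arrays. Of the other 5 genes of that list, Irf8 (3.19-fold) and Wdfy4 (2.59-fold) were higher, Cadm1 was 2.09-fold lower, and the median was -0.076. In the type 2 list, 6 of 7 genes were above background, 2 higher (Ltb4r1, 6.32-fold, and Itgax, of dendritic cells in general, 6.27-fold) and 0 lower, with a median of 0.19 and Sirpa at -0.58. The summed level of the type 1 list was 18.6 and 7.04 times the 75th percentile of its array, in both mostly Irf8. That of the type 2 list was 101 and 88.7, in both mostly Mgl2. Mgl2, itself a C-type lectin, gave 110209 and 122786, a difference of 0.060. In the library labelled Nr4a-deficient, Cd209a, Cd209c, Cd209d, Cd209e, Clec9a and Clec10a were higher. Whether RNA of dendritic cells had a part in these lectin signals was not tested.

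Macrophage markers were lower. Of 9 such genes, 6 were at least 2-fold lower and none higher (median -1.45), among them Vcam1 (3.35-fold), Mertk (3.27-fold) and C1qc (3.03-fold). Of 5 markers of marginal zone and lymph node macrophages, 4 were lower (median -1.34), with Spic at 2.88-fold, Cd5l at 2.72-fold and Marco at 2.52-fold. The 2 probes of Siglec1, the fourth of them, disagreed (-1.24 and 0.21). Summed over the list and counted in multiples of the array's 75th percentile, the macrophage markers reached 29.1 in the library labelled Nr4a-deficient against 67.4 in wild-type, and the plasmacytoid markers 128 and 101, in both mostly the brightest Siglech probe. Endothelial and stromal markers went both ways: 4 of 7 were above background, Stab2, of sinusoidal endothelium, was 3.92-fold lower, and Cdh5, of endothelium in general, was at least 8.10-fold higher. Their median was 0.26 and their summed level 2.03 against 3.97. Monocyte markers did so too, with Ccr2 (3.72-fold) and Lyz2 (2.04-fold) higher, Cd14 2.57-fold lower and a summed level of 5.92 against 2.38. Among neutrophil markers 3 of 6 were higher, Cxcr2 at least 3.72-fold, Mmp9 at least 3.21-fold and Ly6g 2.55-fold. Of 6 NK cell markers, Klrd1 (log2 bound 3.71) and Klrk1 (log2 bound 3.32) were higher. Of 5 erythroid markers 4 were lower, among them Hbb-bs (4.10-fold), Hba-a1 (3.52-fold) and Slc4a1 (3.13-fold), and no B cell marker passed 2-fold. The lectins lower in the same library were Cd209f, Clec1b, Clec1a, Clec4n and Clec4d, and whether RNA of macrophages, endothelium or these other cells had a part in any lectin signal was not tested. From bulk RNA, fewer cells of a type and less RNA per cell cannot be told apart.

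**Figure D5:**
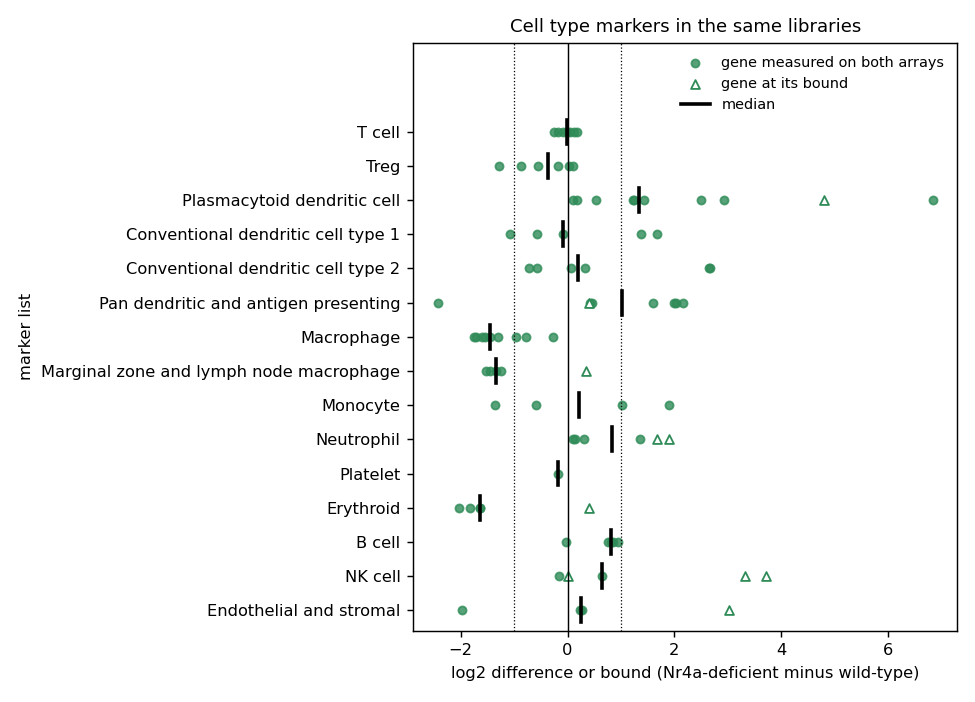
Log2 difference or bound (library labelled Nr4a-deficient less wild-type) of the genes above background in each list of cell type markers, with the list median as a black line and dotted lines at 2-fold. Circles were measured on both arrays and triangles are bounds. Plasmacytoid dendritic cell markers lie mostly above 0 (median 1.33), macrophage markers below it (median -1.45) and T cell markers near it (median -0.0080).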

How the data were processed

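The authors deposited 1 scanner file per library with intensity values per spot, made with Agilent Feature Extraction 10.7.3.1 per the file headers, with background subtraction and detrending inside an array. The headers record no step that scales 1 array to the other. The series' value table, intensity values deposited by the authors, was within 1% of the scanner values for 99.6% and 99.5% of probes and served as an alternative source. Both arrays came from 1 scan, and the number of arrays limits the precision.

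Spots flagged as outliers were left out (173 and 209, none of them a lectin probe), and no spot was saturated. Log2 signals were scaled to the 75th percentile over gene probes. The brightest probe by mean scaled signal stood for a gene, once probes called on neither array had been dropped. A bound sets the brighter value against the higher of the dim value and the lowest scaled signal with that call. Genes were renamed through RefSeq (GRCm38.p6), and no lectin name changed. Probe positions are those of the array design on mm9. With 1 library a group no test was made. The lectins, the lists and their markers were chosen with earlier results of these data known, the marker Cox6a2 among them. All CD209 genes and every Clec gene above background were named with values, the other Clec genes by name and range, and of each list up to 3 genes past 2-fold at either end and known ligands. Chodl, Syk, Fcer1g, Tyrobp, Cd69, Nr4a, Siglech, Siglec1, Sirpa, Flt3, Zbtb46, Mgl2, Foxp3, Cd3e, Cd5 and markers at background were named beyond this, with their values seen. The calculation was tested on simulated data. Python 3.11.15 and limma 3.58.1 were used. Alternatives covered scale, background, filter, probe rule and fold.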

Additional observations from a re-analysis of the deposited data

How the results depend on the processing

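Of 255 values of single lectin genes recomputed under the alternatives, 188 moved by less than the spot noise, 67 by more, and none of those past 2-fold changed sign. The 6 higher lectin genes were 5 when scaled to the spike-ins and 12 without a filter on dim probes. Both arrays above background were met by 2 higher and 2 lower genes, since most lectins past 2-fold were dim on 1 array. Without the Cd209 paralogs, chosen after seeing the data, 2 were higher, and at 4-fold 2 were lower. The median of 0.25 was 0.15 with the array median as the scale, -0.12 with the spike-ins, 0.35 with the mean over the probes of a gene and 0.097 with genes seen on 1 array at their bounds, an alternative also chosen after seeing the data. Of the 2 partner genes that were higher, 1 was past 2-fold with the array median, the spike-ins, normexp and quantile normalization, or cyclic loess. The cause was not tested. No paired analysis was possible because each group had 1 library, and for the same reason no replicate could be left out. The signal over background limits the bounds, and the wild-type array needed a higher signal for a call (73.8 against 51.1).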
